A study of Mus musculus with 8 samples.

Results

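Arginine-handling enzymes and genes of alternative macrophage activation were examined in sorted Kupffer cells, which are macrophages resident in liver. They were selected by gene symbol, and all 10 symbols (Arg1, Arg2, Nos2, Il4ra, Pparg, Ppard, Igf1, Mgl2, Retnla and Tgm2) were found among the 56691 genes of the deposited table. All 10 also passed the filter on low counts, which left 15870 genes for testing. The libraries came from Vsig4-deficient mice (VSIG4 KO in the labels, Vsig4-/- in the protocol; 4 libraries, KO 1 to KO 4) and from wild-type mice (WT; 4 libraries, WT 1 to WT 4). Mice of both genotypes carried liver metastases of B16F10, a mouse melanoma line, and cells were taken 7 days after its injection as living CD45+ Tim-4+ cells. The labels used here give no strain, age or sex and do not say that each library was 1 animal. The p-values therefore measure only how these libraries vary, and that variation may be technical. Melanoma and hepatocyte transcripts were present in every library, and whether they came with other cells through the gate was not tested.

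Macrophages can use arginine in competing ways. Inducible nitric oxide synthase turns it into nitric oxide and citrulline, a hallmark of cells activated by interferon gamma and microbial products. Arginase turns it into ornithine and urea and so feeds polyamine and proline synthesis. In mouse macrophages the cytokines IL-4 and IL-13 act through the receptor chain encoded by Il4ra and the transcription factor STAT6 to raise Arg1, Retnla, Mgl2 and related genes. The nuclear receptors encoded by Pparg and Ppard, which sense fatty acids, are needed for parts of that programme. In the liver Arg1 has another role, as the last enzyme of the urea cycle in hepatocytes, where it is abundant.

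Retnla and Mgl2 are both classic IL-4 target genes of mouse macrophages, and their start-site windows are shown because their estimates between genotypes lay on different sides of 0. The Mgl2 estimate lay within its standard error of 0 and changed sign in some settings, so the pair is no contrast of direction. Each window, from RefSeq (GRCm38.p6, plus strand), runs from 250 bases before to 50 bases after the annotated start. The STAT6-type motif, TTC and GAA with any 4 bases between them, was searched together with the general STAT motif, which has 3 bases between them. Both read the same on either strand. Capitals mark the only match, TTCACAAGAA, which lies 145 to 136 bases before the Retnla start.
Retnla, chr16:48842359-48842658: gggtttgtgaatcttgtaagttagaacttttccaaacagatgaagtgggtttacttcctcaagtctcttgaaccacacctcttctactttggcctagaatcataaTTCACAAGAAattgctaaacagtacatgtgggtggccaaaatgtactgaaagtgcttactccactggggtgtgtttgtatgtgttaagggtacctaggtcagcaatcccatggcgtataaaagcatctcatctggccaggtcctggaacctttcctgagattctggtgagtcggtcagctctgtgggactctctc
Mgl2, chr11:70130107-70130406: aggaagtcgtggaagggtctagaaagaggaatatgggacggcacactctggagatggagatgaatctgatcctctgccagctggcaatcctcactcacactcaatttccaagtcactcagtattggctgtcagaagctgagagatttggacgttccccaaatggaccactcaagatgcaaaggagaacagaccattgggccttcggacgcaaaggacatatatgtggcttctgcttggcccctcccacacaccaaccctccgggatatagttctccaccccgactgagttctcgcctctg
Windows were available for 6 of the 10 genes (Pparg, with 3 windows, Il4ra, Igf1, Mgl2, Retnla and Ppard), and the Retnla match was the only one of either motif among these 8 windows. Of all 32851 windows of this length, 6.95% held the STAT6-type motif and 8.30% the general one. A match describes letters and is not a measured binding site.

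Total counts ran from 16994406 to 19513844 in the KO libraries and from 15264043 to 19445494 in the WT libraries. Vsig4, the targeted gene, had 2 to 9 counts in the KO libraries and 22498 to 46735 in the WT libraries, in the direction of the labels. It was the only gene past the adjusted threshold of 0.05 in edgeR's quasi-likelihood test without a block (0.0063% of genes), in the lower direction. At an unadjusted p under 0.05, 671 genes (4.23%) were higher and 723 lower in KO. Libraries with the same number in both genotypes deviated together, though the labels state no pairing. Libraries of different number were not compared in this way, so a pairing is not established. A fit with that number as a block is given where it changes a call. The blocked fit called 2220 genes, 14.0% of those tested, 1425 of them (8.98%) higher and 795 lower in KO. Melanoma genes (10 markers, all detected) summed to 2381 to 12107 CPM (counts scaled to the library total, corrected by trimmed mean of M-values, TMM) in KO and 405 to 5379 CPM in WT. Kupffer cell genes (12 markers, all detected) summed to 7701 to 23783 CPM in KO and 19529 to 34757 CPM in WT. Hepatocyte genes (17 markers, none at 0 in any library) summed to 233 to 917 CPM in KO and 509 to 2333 CPM in WT. In bulk RNA fewer cells of a type and less RNA per cell cannot be told apart.

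None of the 10 genes passed the adjusted threshold without the block, and 8 of the 10 had a lower estimate in KO. The median log2 fold change (KO minus WT) of the 10 was -0.70, beside -0.0028 over all tested genes, of which 50.4% had a lower estimate. The log2 difference of the Kupffer cell gene sum was -0.69, and all 12 of its genes had a lower mean CPM in KO. The part of that difference in the values of the 10 genes was not tested. Arg2, Nos2 and Retnla had an unadjusted p under 0.05, all lower in KO; over all genes 4.56% did so in that direction. With the block Arg2, Igf1 and Tgm2 fell, which is 3 of the 10 where 5.01% of all tested genes were called lower. Those 3 calls depended on which libraries were in the blocked fit: without replicate number 1, 2 or 3 none of the 10 was called, and without number 4 Arg1, Arg2, Igf1, Retnla and Tgm2 were called lower, as were 4.73% of all genes in that fit. DESeq2 called none of the 9 with an adjusted p (Nos2 had none) and 0.227% of all genes lower. The adjusted p-values without the block lay between 0.492 and 0.965.

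**Figure D1:**
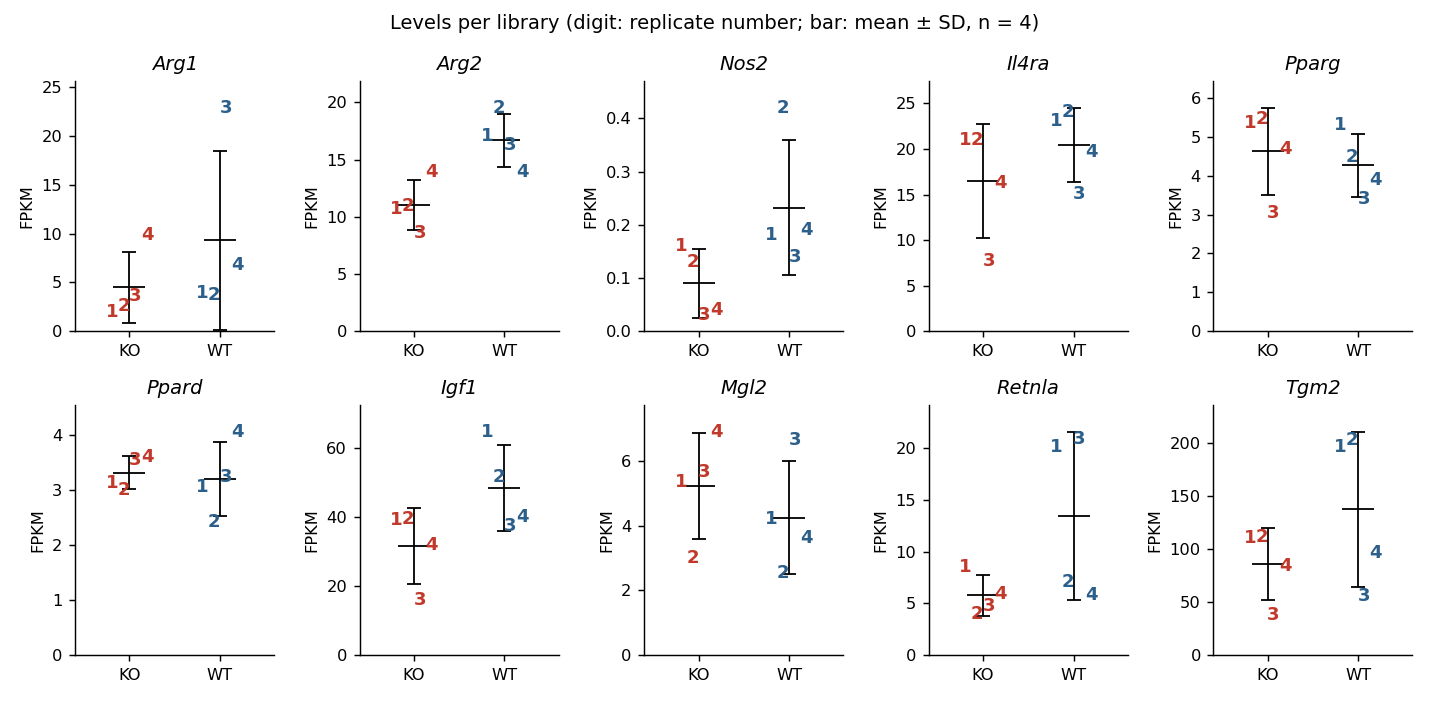
Level of each of the 10 genes in FPKM (fragments per exon length and library total, vertical axis from 0) in every library, KO left and WT right; digits are the replicate numbers and the bar is the mean ± SD over 4 libraries. Arg2 in KO 4 reaches the lowest WT library, and KO 3 is the lowest library for Tgm2, Igf1 and Il4ra.

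Per length, Tgm2 was the most abundant of the 10 in all 8 libraries and Nos2 the least. In KO the FPKM means ran in the order Tgm2 (86.0 ± 34.3), Igf1 (31.6 ± 10.95), Il4ra (16.5 ± 6.26), Arg2 (11.04 ± 2.20), Retnla (5.77 ± 2.002), Mgl2 (5.24 ± 1.64), Pparg (4.63 ± 1.119), Arg1 (4.50 ± 3.66), Ppard (3.32 ± 0.296) and Nos2 (0.090 ± 0.0648; SD, n = 4). In WT the order was Tgm2 (138 ± 73.4), Igf1 (48.5 ± 12.5), Il4ra (20.5 ± 4.06), Arg2 (16.7 ± 2.31), Retnla (13.5 ± 8.17), Arg1 (9.32 ± 9.17), Pparg (4.27 ± 0.816), Mgl2 (4.26 ± 1.74), Ppard (3.20 ± 0.676) and Nos2 (0.233 ± 0.127). In KO the library ranges of neighbours were separate only between Arg2 and Retnla and between Ppard and Nos2; in WT they were separate only between Igf1 and Il4ra and between Ppard and Nos2.

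Arg1 and Arg2 encode the cytosolic and the mitochondrial arginase. Arg2 was above Arg1 in FPKM in 7 of 8 libraries, the exception being WT 3. Arg1 (ENSMUSG00000019987, chromosome 10, 24791119 to 24803382, minus strand; all positions of genes are as deposited, and no source used here names their build) had 1.92, 2.60, 3.57 and 9.89 FPKM in KO 1 to KO 4, against 3.88, 3.67, 22.9 and 6.81 FPKM in WT 1 to WT 4. WT 3 stood far above every other library, KO 4 was the next, and the genotypes overlapped. The log2 fold change was -1.119 ± 0.689 (SE; edgeR adjusted p = 0.492), and it was -0.21 without WT 3. Arg2 (ENSMUSG00000021125, chromosome 12, 79177551 to 79203075, plus strand) had 10.65, 10.95, 8.61 and 13.95 FPKM in KO 1 to KO 4, against 17.1, 19.5, 16.3 and 13.93 FPKM in WT 1 to WT 4. The KO libraries were the lower ones apart from KO 4, which matched WT 4 in FPKM; in CPM the genotypes did not overlap, at 11.6 to 18.7 CPM in KO and 19.5 to 30.4 CPM in WT. Of tested genes 5.56% had no overlap between genotypes and 2.85% were lower in KO without overlap; Arg2 was the only one of the 10. The genes most like Arg2 over the 8 libraries were Spic (0.978), Hlcs (0.970) and Tmco4 (0.969, Pearson r), and Spic encodes a transcription factor of red pulp macrophages and Kupffer cells. The log2 fold change of Arg2 was -0.70 ± 0.191, a 1.62-fold lower level in KO (edgeR adjusted p = 0.492), and with the block -0.70 ± 0.171 (edgeR adjusted p = 0.0382).

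Arg1 moved with hepatocyte RNA. Over the 8 libraries its log2 CPM followed the log2 sum of the 17 hepatocyte genes (Pearson r = 0.890, exact permutation p = 0.00375, adjusted p = 0.0250; Spearman rho = 0.833, exact permutation p = 0.0154, adjusted p = 0.0615); 20 such relations were computed and adjusted together. Without WT 3 and KO 2, the libraries farthest from the median hepatocyte sum, r was 0.769, and within KO and within WT it was 0.720 and 0.993 over 4 libraries each. The genes whose pattern over the 8 libraries was most like that of Arg1 (highest Pearson r of log2 CPM among 11405 genes) were Zfp830 (0.959), Itih4 (0.956) and Hrg (0.953), of which Itih4 and Hrg encode plasma proteins made by hepatocytes. Per 1000 counts of hepatocyte genes, Arg1 had 12.3, 24.7, 8.49 and 22.5 counts in KO 1 to KO 4, against 15.1, 17.5, 21.4 and 19.3 in WT 1 to WT 4. The WT values lay inside the range of the KO values (exact 2-sided permutation p = 0.60; log2 difference -0.23). With the mean of the hepatocyte list as a covariate the log2 fold change of Arg1 was -0.28 (edgeR adjusted p = 0.561), and that of Retnla -1.22 (edgeR adjusted p = 0.118). In that fit Arg2 (-0.75), Nos2 (-2.005), Igf1 (-0.97) and Tgm2 (-1.120) fell (edgeR adjusted p = 0.0493 for Arg2, Igf1 and Tgm2 and 0.0497 for Nos2), as did 3.30% of tested genes. With the melanoma covariate instead, Arg2 was at -0.47 (edgeR adjusted p = 0.550) and Nos2 at -0.74 (edgeR adjusted p = 0.865). Leaving out WT 1, WT 2 and KO 3 gave -0.35 for Arg2 (edgeR adjusted p = 0.937) and -0.59 for Nos2 (edgeR adjusted p = 0.953). For Arg2 the relation to the hepatocyte sum was r = 0.182 (exact permutation p = 0.678, adjusted p = 0.678; Spearman rho = 0.0952, exact permutation p = 0.840, adjusted p = 0.840; r = -0.235 without WT 3 and KO 2). Its relation to the melanoma sum was r = -0.786 (exact permutation p = 0.0213, adjusted p = 0.0709; Spearman rho = -0.595, exact permutation p = 0.132, adjusted p = 0.189; r = -0.309 without WT 1 and WT 2), and the part of melanoma RNA in the Arg2 difference was not tested beyond these values.

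**Figure D2:**
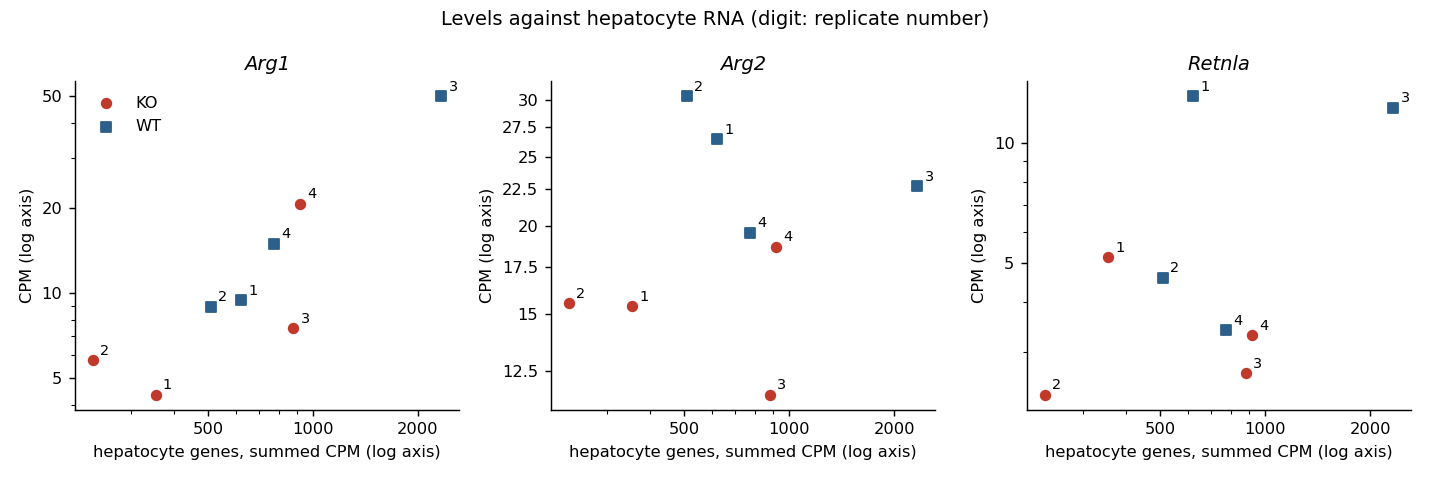
CPM of Arg1, Arg2 and Retnla (vertical log axes) against the summed CPM of 17 hepatocyte genes (horizontal log axes) in the 4 KO and 4 WT libraries, labelled with their replicate numbers. Arg1 rises along the hepatocyte sum up to WT 3 at 2333 CPM, whereas Arg2 and Retnla do not line up with it.

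Nos2, the inducible nitric oxide synthase, was close to the detection limit in all libraries. Nos2 (ENSMUSG00000020826, chromosome 11, 78811613 to 78851080, plus strand) had 13, 11, 2 and 3 counts in KO 1 to KO 4, against 12, 36, 10 and 13 counts in WT 1 to WT 4. Scaled for depth, KO 2, KO 3 and KO 4 lay below every WT library, at 0.561, 0.111 and 0.157 CPM beside 0.619 CPM in WT 3, the lowest of WT. KO 1, at 0.724 CPM, lay among the WT libraries, and WT 2 was the highest. Its mean was 0.388 ± 0.301 CPM in KO and 1.08 ± 0.635 CPM in WT (SD, n = 4), with a log2 fold change of -1.47 ± 0.647 (edgeR adjusted p = 0.492). On the log2(FPKM + 1) scale the difference was -0.17 (limma adjusted p = 0.438), since that scale compresses low genes. Nos2 fell along the melanoma sum (Pearson r = -0.813, exact permutation p = 0.0161, adjusted p = 0.0645; Spearman rho = -0.881, exact permutation p = 0.00724, adjusted p = 0.0362), and r was -0.801 over the 6 libraries other than WT 1 and WT 2. The genes most like it over the 8 libraries were Zc3h11a (0.994), Ifit1bl1 (0.990) and Fgl2 (0.984, Pearson r), and Ifit1bl1 belongs to an interferon-induced family.

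Tgm2, which encodes a protein cross-linking transglutaminase used as a marker of alternative activation, was the most abundant of the set. Tgm2 (ENSMUSG00000037820, chromosome 2, 157958322 to 157988356, minus strand) had 110.4, 111, 38.2 and 83.9 FPKM in KO 1 to KO 4, against 196, 203, 55.4 and 96.1 FPKM in WT 1 to WT 4. WT 1 and WT 2 were far above all other libraries, and WT 3 and WT 4 lay inside the KO range. The log2 fold change was -0.79 ± 0.506 (edgeR adjusted p = 0.495) and with the block -0.70 ± 0.143 (edgeR adjusted p = 0.0287), lower in KO in 4 of 4 pairs of equal number. Igf1, a growth factor that liver macrophages and hepatocytes both make, is also used as a marker of alternatively activated macrophages. Igf1 (ENSMUSG00000020053, chromosome 10, 87694127 to 87772904, plus strand) had 39.2, 39.4, 16.1 and 31.9 FPKM in KO 1 to KO 4, against 64.85, 51.6, 37.4 and 40.0 FPKM in WT 1 to WT 4. KO 3 was the lowest, WT 1 the highest, and KO 1 and KO 2 lay above WT 3 and below WT 4. Its log2 fold change was -0.71 ± 0.334 (edgeR adjusted p = 0.492) and with the block -0.75 ± 0.154 (edgeR adjusted p = 0.0284), lower in KO in 4 of 4 pairs. In the same 4 pairs the Kupffer cell sum was also lower in KO and the melanoma sum higher. The block does not remove that difference, and its part in the Tgm2 and Igf1 values was not tested.

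Il4ra encodes the chain shared by the IL-4 and IL-13 receptors. Il4ra (ENSMUSG00000030748, chromosome 7, 125151292 to 125178646, plus strand) had 20.99, 20.97, 7.70 and 16.3 FPKM in KO 1 to KO 4, against 23.0, 24.1, 15.04 and 19.7 FPKM in WT 1 to WT 4. KO 3 alone lay below all WT libraries. The log2 fold change was -0.40 ± 0.333 (edgeR adjusted p = 0.547), -0.48 ± 0.139 with the block (edgeR adjusted p = 0.0569) and -0.16 without KO 3.

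Tgm2, Igf1 and Il4ra were ordered by melanoma RNA across both genotypes. WT 1 and WT 2 stood apart from the other 6 libraries in melanoma sum, at 475 and 405 CPM. Over all 8 libraries the relation was r = -0.942 for Tgm2 (exact permutation p = 0.000298, adjusted p = 0.00595; Spearman rho = -0.976, exact permutation p = 0.000397, adjusted p = 0.00397). It was r = -0.879 for Igf1 (exact permutation p = 0.00119, adjusted p = 0.0119; Spearman rho = -0.952, exact permutation p = 0.00114, adjusted p = 0.00761). For Il4ra it was r = -0.816 (exact permutation p = 0.00742, adjusted p = 0.0371; Spearman rho = -0.976, exact permutation p = 0.000397, adjusted p = 0.00397). Over the 6 libraries without WT 1 and WT 2 the values were -0.902 for Tgm2, -0.880 for Igf1 and -0.931 for Il4ra. Gene and marker sum share 1 scaling per library, so added melanoma RNA can by itself lower the CPM of other genes, though not of every gene. Over all 8 libraries r with the melanoma sum was positive for Arg1 (0.270), Ppard (0.502) and Mgl2 (0.508). It was negative for the other genes of the set. The part of the shared scaling in these relations was not tested. With the melanoma list as a covariate the log2 fold changes were 0.16 for Tgm2, -0.25 for Igf1 and 0.012 for Il4ra. Leaving out WT 1, WT 2 and KO 3 gave 0.44 for Tgm2, -0.06 for Igf1 and 0.17 for Il4ra. The part of melanoma RNA in the difference between genotypes was not tested beyond these values.

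Set against Kupffer cell genes, Igf1 and Il4ra were nearly level across all libraries. Per 1000 counts of the 12 Kupffer genes, Igf1 had 16.5, 16.8, 19.4 and 16.5 counts in KO 1 to KO 4, against 20.1, 16.2, 18.6 and 17.4 in WT 1 to WT 4. That is a 1.24-fold range over the 8 libraries, where its CPM spanned a 4.66-fold range, from 150 in KO 3 to 698 in WT 1. Il4ra had 5.37, 5.41, 5.64 and 5.10 counts per 1000 in KO 1 to KO 4, against 4.32, 4.596, 4.52 and 5.202 in WT 1 to WT 4, a 1.31-fold range. Of the 9520 genes with at least 100 counts in every library, 46 had a smaller SD of this log2 ratio than Igf1 and 84 a smaller one than Il4ra. Tgm2 was less level, at 21.7, 22.1, 21.5 and 20.2 per 1000 in KO 1 to KO 4, against 28.2, 29.8, 12.8 and 19.5 in WT 1 to WT 4: the KO values were close together and the WT values spread to both sides of them. Arg2 had 0.965 ± 0.40 per 1000 in KO and 0.922 ± 0.170 in WT (SD, n = 4). Dividing by Kupffer genes moved the median log2 difference of all tested genes to 0.69. On that scale the log2 differences were -0.06 for Igf1, 0.21 for Il4ra, -0.0039 for Arg2 and -0.0022 for Tgm2; the division moves all genes of a library alike, so it leaves their order unchanged. Clec4f, Cd5l and Marco made up 60.004% to 62.5% of the Kupffer sum in each library. The genes most like Igf1 over the 8 libraries included Apoe (0.998) and Chp2 (0.996). Those most like Il4ra included Fcer1g (0.998) and Cmklr1 (0.998). Those most like Tgm2 were Acvrl1 (0.996), Sirpa (0.992) and Tpd52 (0.992, Pearson r). Fcer1g and Sirpa encode signalling proteins of myeloid cells.

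**Figure D3:**
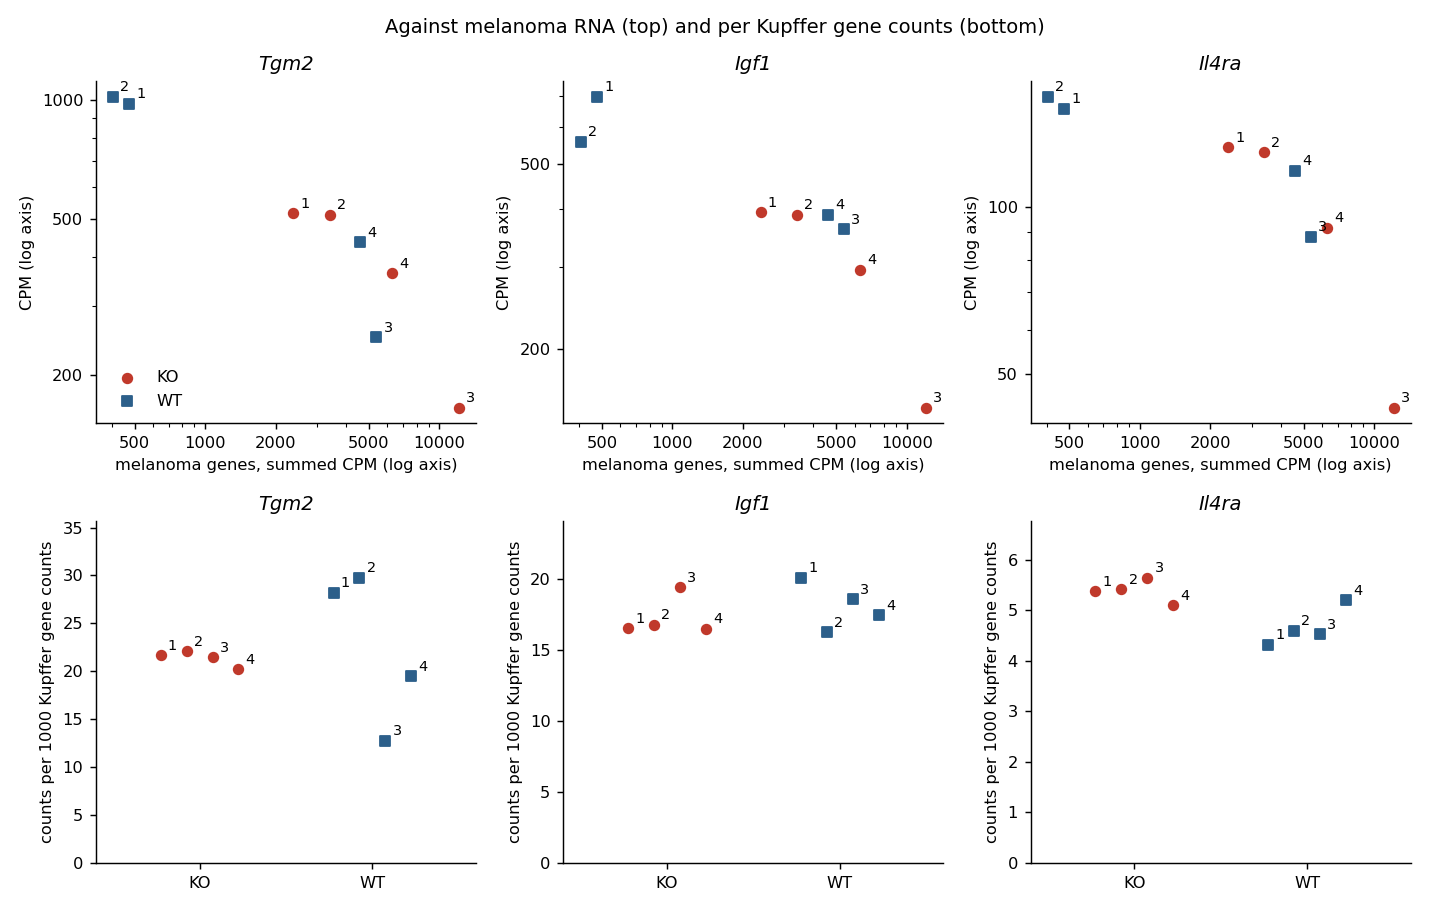
Top row, CPM of Tgm2, Igf1 and Il4ra (vertical log axes) against the summed CPM of 10 melanoma genes (horizontal log axes); bottom row, the same genes as counts per 1000 counts of 12 Kupffer cell genes (axis from 0), KO left and WT right, with replicate numbers beside the points. The CPM values are highest in WT 1 and WT 2 and lowest in KO 3, while the ratios of Igf1 stay between 16.2 and 20.1.

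Pparg and Ppard encode nuclear receptors that bind fatty acids, and their estimates lay close to 0. Pparg (ENSMUSG00000000440, chromosome 6, 115337912 to 115467360, plus strand) ranged from 3.03 to 5.45 FPKM in KO and from 3.41 to 5.30 FPKM in WT, with a log2 fold change of 0.025 ± 0.255 (edgeR adjusted p = 0.965). Ppard (ENSMUSG00000002250, chromosome 17, 28451674 to 28520448, plus strand) ranged from 3.01 to 3.60 FPKM in KO and from 2.43 to 4.07 FPKM in WT, with a log2 fold change of -0.03 ± 0.139 (edgeR adjusted p = 0.916). Both genotypes overlapped widely for both genes, and the sign of either estimate changed between settings. Pparg fell along the melanoma sum (r = -0.718, exact permutation p = 0.0464, adjusted p = 0.116; Spearman rho = -0.786, exact permutation p = 0.0279, adjusted p = 0.0931; r = -0.867 without WT 1 and WT 2), while Ppard did not (r = 0.502, exact permutation p = 0.221, adjusted p = 0.335; Spearman rho = 0.643, exact permutation p = 0.0962, adjusted p = 0.175; r = 0.231 without WT 1 and WT 2). Per 1000 Kupffer gene counts Pparg had 0.674 to 1.09 in KO and 0.42 to 0.504 in WT, without overlap, as did 6.37% of tested genes in that direction; its log2 difference on that scale, 0.70, was close to the 0.69 of the median gene. The genes most like Pparg were Tagln2 (0.979), Vac14 (0.974) and Limk1 (0.973), and those most like Ppard were Adam15 (0.881), Pgs1 (0.865) and Ilkap (0.839, Pearson r over 8 libraries).

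Retnla and Mgl2 are markers that IL-4 strongly induces in mouse macrophages. Retnla encodes a secreted resistin-like protein and Mgl2 a galactose-binding C-type lectin found on macrophages and dendritic cells. Retnla (ENSMUSG00000061100, chromosome 16, 48662914 to 48664824, plus strand) had 8.52, 3.94, 4.72 and 5.88 FPKM in KO 1 to KO 4, against 20.1, 7.04, 20.9 and 5.79 FPKM in WT 1 to WT 4. WT 1 and WT 3 were high, whereas WT 2 and WT 4 lay in the KO range, so the WT spread was wider than the KO spread. Its log2 fold change was -1.30 ± 0.485 (edgeR adjusted p = 0.492), -1.16 ± 0.334 with the block (edgeR adjusted p = 0.0555), and between -1.21 and -1.117 with the melanoma covariate or without WT 1, WT 2 and KO 3. Mgl2 (ENSMUSG00000040950, chromosome 11, 70021155 to 70028376, plus strand) ranged from 2.99 to 6.92 FPKM in KO and from 2.53 to 6.65 FPKM in WT. In both genotypes the number 2 library was the lowest. Its log2 fold change was 0.22 ± 0.320 (edgeR adjusted p = 0.713) and -0.02 with the melanoma covariate. Mgl2 has a close paralogue, Clec10a, which averaged 11.6 FPKM in KO and 11.2 FPKM in WT. Reads shared by the copies could be split between them. The genes most like Retnla were Pgam2 (0.918), Asgr2 (0.914) and Golga5 (0.900). Those most like Mgl2 were Apom (0.918), Vrk3 (0.909) and Cyp2d9 (0.892, Pearson r over 8 libraries). Asgr2, Apom and Cyp2d9 are hepatocyte genes. The relation to the hepatocyte sum was r = 0.468 for Retnla (exact permutation p = 0.251, adjusted p = 0.335; Spearman rho = 0.167, exact permutation p = 0.703, adjusted p = 0.740; r = -0.429 without WT 3 and KO 2) and r = 0.632 for Mgl2 (exact permutation p = 0.0909, adjusted p = 0.202; Spearman rho = 0.690, exact permutation p = 0.0694, adjusted p = 0.139; r = 0.242 without WT 3 and KO 2).

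**Figure D4:**
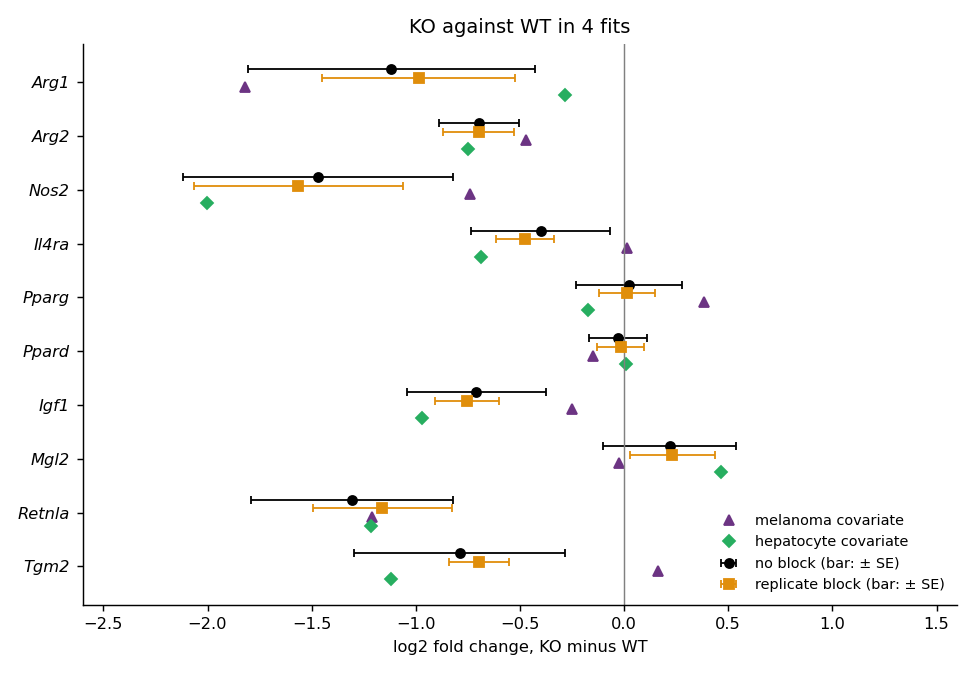
Log2 fold change (KO minus WT, horizontal axis) of the 10 genes in 4 fits: without a block and with the replicate block (bars: ± SE), with the melanoma list and with the hepatocyte list as a covariate. Arg1 lies nearest to 0 with the hepatocyte covariate (-0.28), while Igf1 (-0.25), Il4ra (0.012) and Tgm2 (0.16) do so with the melanoma covariate. Arg1, Arg2, Nos2, Igf1 and Retnla stay below 0 in all 4.

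The wider pathways around these genes were read from 6 fixed lists, none of which had a member past the adjusted threshold without the block. In the list of urea cycle, nitric oxide and arginine transport genes (18 of 21 tested, median log2 fold change -0.24, beside -0.0028 for all genes), the blocked fit called 2 lower and 1 higher; over all genes it called 5.01% lower and 8.98% higher. Slc7a2 and Slc7a1, both carriers of cationic amino acids, went opposite ways with the block. Slc7a2 had 1.91 ± 0.327 FPKM in KO and 2.79 ± 0.735 FPKM in WT (blocked edgeR adjusted p = 0.0338), and Slc7a1 had 8.51 ± 5.16 FPKM in KO and 4.40 ± 3.38 FPKM in WT (blocked edgeR adjusted p = 0.0314). Slc7a1 was lowest in WT 1 and WT 2 (1.49 and 1.46 FPKM), the libraries with the least melanoma RNA, and highest in KO 3 (15.6 FPKM), with the most; the part of melanoma RNA was not tested. Gatm, which uses arginine for creatine synthesis, fell with the block (46.1 ± 14.8 FPKM in KO and 60.2 ± 17.2 FPKM in WT; blocked edgeR adjusted p = 0.0310). Gatm was highest in WT 1 and WT 2 (74.5 and 73.9 FPKM) and lowest in KO 3 (24.8 FPKM), and the part of melanoma RNA was not tested. Slc3a2, the heavy chain of amino acid carriers (77.5 ± 14.2 FPKM in KO and 84.7 ± 16.8 FPKM in WT), and Qdpr, which recycles the nitric oxide synthase cofactor (29.5 ± 1.76 FPKM in KO and 26.5 ± 0.39 FPKM in WT), were the other abundant members and were not called.

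Downstream of arginase, the 15 ornithine and polyamine genes had a median of 0.046 and 2 were called higher with the block, where 8.98% of all genes were. Srm, spermidine synthase, had 17.1, 20.9, 34.2 and 26.5 FPKM in KO 1 to KO 4, against 10.5, 7.53, 15.2 and 15.6 FPKM in WT 1 to WT 4. Every KO library was above every WT library, as for 2.71% of tested genes in that direction, and its log2 fold change was 0.93 ± 0.250 (edgeR adjusted p = 0.492 without the block and 0.0254 with it). Oat, which turns ornithine towards proline, had 120 ± 49.3 FPKM in KO and 79.1 ± 25.1 FPKM in WT (blocked edgeR adjusted p = 0.0373). Both were highest in KO 3, the library with the most melanoma RNA, and the part of melanoma RNA in them was not tested. Sat1, which acetylates polyamines (464 ± 141 FPKM in KO and 545 ± 46.3 FPKM in WT), and the antizyme gene Oaz1 (98.5 ± 7.61 FPKM in KO and 94.4 ± 4.76 FPKM in WT) were not called.

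For IL-4 and IL-13 signalling, 10 of 12 tested genes had lower estimates in KO (median -0.30), beside 50.4% and a median of -0.0028 over all genes, and none was called in either fit; with the melanoma covariate the median was 0.052. The common gamma chain gene Il2rg had 36.7 ± 13.8 FPKM in KO and 45.4 ± 9.35 FPKM in WT, Stat6 had 51.7 ± 11.7 FPKM in KO and 58.8 ± 7.42 FPKM in WT, and the phosphatase gene Ptpn6 had 141 ± 43.1 FPKM in KO and 153 ± 26.3 FPKM in WT. The ligand gene Il4 had 2.13 ± 0.917 FPKM in KO and 1.47 ± 0.322 FPKM in WT. Il13 was not tested; it had 1, 0, 0 and 3 counts in KO 1 to KO 4 and 0 in each WT library, where a count of 0 allows up to 3 counts per library, for counting error only.

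Of 20 other alternative activation genes, 15 had lower estimates (median -0.13; 50.4% of all genes had), and Il10 and Klf4 fell with the block, which called 5.01% of all genes lower. Il10, an anti-inflammatory cytokine, had 7.46, 6.42, 4.76 and 5.89 FPKM in KO 1 to KO 4, against 20.3, 14.6, 9.86 and 9.09 FPKM in WT 1 to WT 4, without overlap, as for 2.85% of all genes in that direction (blocked edgeR adjusted p = 0.0254). WT 1 and WT 2 were its highest libraries and KO 3 its lowest, and the part of melanoma RNA was not tested. Klf4, a transcription factor that acts with STAT6 in macrophages, had 24.2 ± 13.1 FPKM in KO and 41.7 ± 21.9 FPKM in WT (blocked edgeR adjusted p = 0.0254). The mannose receptor gene Mrc1 was the most abundant (157 ± 67.5 FPKM in KO and 214 ± 51.6 FPKM in WT), followed by the beta-glucan receptor gene Clec7a (135 ± 31.3 FPKM in KO and 161 ± 23.0 FPKM in WT) and the eotaxin gene Ccl24 (86.8 ± 32.8 FPKM in KO and 96.4 ± 24.6 FPKM in WT), and none of these was called.

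Among PPAR partners and target genes (19 of 20 tested, median -0.15), the block called 2 lower and 2 higher, beside 5.01% lower and 8.98% higher over all genes. Rxra, the partner receptor, had 48.8 ± 15.6 FPKM in KO and 64.6 ± 16.5 FPKM in WT, and the lipoprotein lipase gene Lpl had 91.4 ± 45.8 FPKM in KO and 123 ± 52.5 FPKM in WT (blocked edgeR adjusted p = 0.0439 for Rxra and 0.0332 for Lpl, both lower). Rxra and Lpl were highest in WT 1 and WT 2 and lowest in KO 3, and the part of melanoma RNA was not tested. Fabp5, a fatty acid carrier, had 31.6, 39.5, 115 and 57.1 FPKM in KO 1 to KO 4, against 7.64, 7.12, 51.5 and 41.9 FPKM in WT 1 to WT 4. Ppargc1a, a coactivator, had 2.92, 3.56, 10.95 and 7.02 FPKM in KO 1 to KO 4, against 0.36, 0.42, 5.53 and 5.06 FPKM in WT 1 to WT 4 (blocked edgeR adjusted p = 0.0287 for Fabp5 and 0.0457 for Ppargc1a, both higher). WT 1 and WT 2, the libraries with the least melanoma RNA, were the lowest and KO 3, with the most, was the highest for both, and the part of melanoma RNA was not tested. Ucp2 (116 ± 36.3 FPKM in KO and 140 ± 13.5 FPKM in WT) and the lipid droplet gene Plin2 (78.9 ± 20.3 FPKM in KO and 86.8 ± 6.56 FPKM in WT) were not called.

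In the IGF axis (12 of 15 tested, median -0.26), Igfbp7 and Igfbp5, which encode IGF-binding proteins, fell with the block and Igf2r, the receptor that clears IGF2, rose; over all genes the block called 5.01% lower and 8.98% higher. Igfbp7 had 6.40, 4.62, 3.41 and 4.91 FPKM in KO 1 to KO 4, against 16.6, 10.04, 10.5 and 9.42 FPKM in WT 1 to WT 4, without overlap, as for 2.85% of all genes in that direction (log2 fold change -1.36 ± 0.285, edgeR adjusted p = 0.492 without the block and 0.0254 with it). Igfbp5 had 0.312 ± 0.389 FPKM in KO and 1.58 ± 1.05 FPKM in WT (blocked edgeR adjusted p = 0.0407). Markers of stellate cells and fibroblasts, which also express binding proteins, were lower in KO for 7 of 8 genes, at a summed 75.1 to 135 CPM in KO and 183 to 294 CPM in WT (exact 2-sided permutation p = 0.0286, the smallest possible with 4 against 4; adjusted p = 0.371 over 13 marker lists), and their part in the Igfbp values was not tested. Igf2r had 10.6 ± 2.24 FPKM in KO and 7.09 ± 0.909 FPKM in WT, without overlap, as for 2.71% of all genes in that direction (blocked edgeR adjusted p = 0.0286). It was highest in KO 3 (13.6 FPKM) and lowest in WT 1 and WT 2 (6.06 and 6.59 FPKM), and the part of melanoma RNA was not tested. Igfbp4 (15.2 ± 7.09 FPKM in KO and 10.3 ± 4.15 FPKM in WT) was not called. With the melanoma covariate the list medians were -0.046 for arginine, 0.057 for ornithine and -0.037 for other alternative activation genes. In that fit they were -0.030 for PPAR genes and -0.56 for the IGF axis. The part of melanoma RNA in the list medians was not tested beyond these values.

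**Figure D5:**
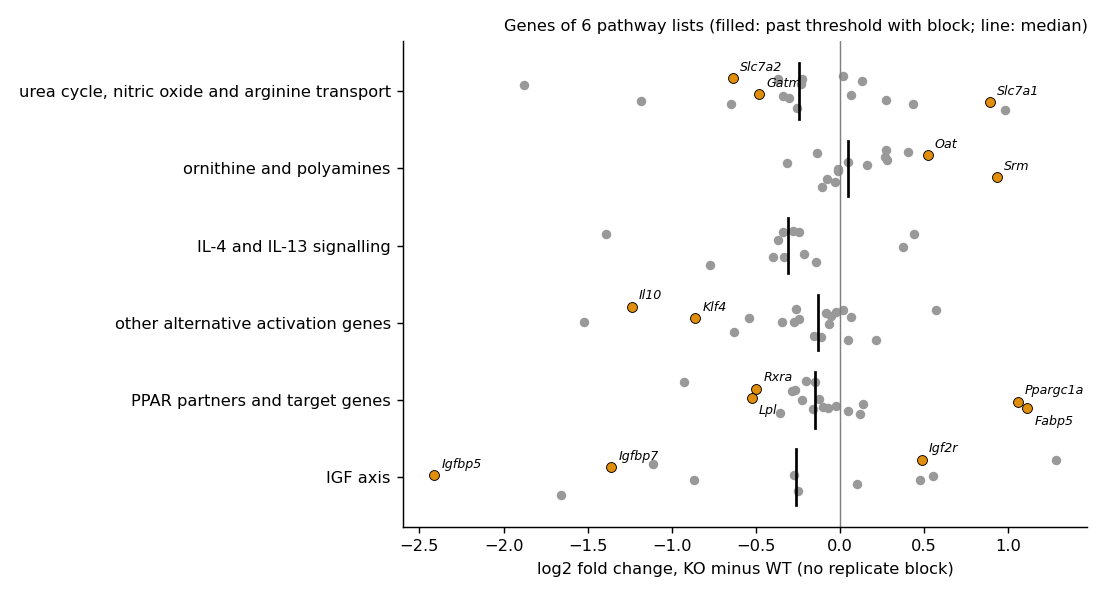
Log2 fold change (KO minus WT, without the block, horizontal axis) of each tested gene in the 6 pathway lists (vertical axis; the vertical offset within a list carries no value); the black line is the list's median and filled, named points passed the threshold with the replicate block. No point passed without the block, and the medians lie between -0.30 and 0.046.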

How the data were processed

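RNA-seq counts of 8 libraries were used. The deposited table holds raw counts per gene and the authors' FPKM, per the file headers, beside exonic sizes and positions as other numbers. HTSeq 0.6.1 and mm10 are named per the submitters' processing notes; no source used here names the aligner or strand setting. The deposited FPKM equalled count per exonic size and column total within 0.005. Deposited positions matched GENCODE M21 (GRCm38) for only 1485 of 52073 shared identifiers, so no build is given for them. Columns K were read as KO and C as WT, their digits being the replicate numbers of the titles. In that annotation Arg2, Il4ra, Pparg, Igf1 and Tgm2 overlap genes on the opposite strand, which these counts may not separate.

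Genes were filtered with filterByExpr, scaled by TMM and compared with edgeR 4.0.16 (R 4.3.3; quasi-likelihood F test, 2-sided, Benjamini-Hochberg over 15870 genes, threshold 0.05). The design named this test for counts and limma for FPKM alone; the file held counts. Alternatives used limma 3.58.1, DESeq2 1.42.0, other scalings, no filter, left-out libraries, the replicate block and covariates. Log2 CPM used a prior count of 2. For single values an exact permutation test went over 70 splits, and correlations over 40320 pairings. Marker and pathway lists, members and named genes (all 10, Il4 and Il13, up to 4 blocked calls and the 3 most abundant genes per list, the 3 most alike per member) were chosen with earlier results of these data known. Some genes that this rule names are not reported here. Ratios per 1000 Kupffer or hepatocyte counts are descriptions; Clec10a and some Kupffer genes were named after their values were seen.

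The numbers 1 to 4 were taken to pair the libraries: deviations from genotype means correlated between same-numbered libraries at 0.561, 0.544, 0.660 and 0.290. The labels do not state a pairing, so blocked calls depend on that reading of the values. Correlations between libraries of different number are not given, so these values do not establish a pairing. In both genotypes number 3 had the highest melanoma sum and numbers 1 and 2 the lowest, and the part of this in the correlations was not tested. Libraries of equal genotype all differed by more than sampling noise (chi-square per degree of freedom at least 11.04). A count of 0 allows 3 counts, 0.153 to 0.214 CPM, for counting error only. On simulated data with these libraries' means and spread (15870 genes), the fit without the block recovered 38% of changes of 2-fold and 71% of those of 4-fold, with 7 false calls among 116. With simulated number effects the blocked fit recovered 13% and 65%, with 2 false calls among 80. Those effects were added to a spread estimated without the number, which already held differences between numbers. The blocked rates therefore do not describe the blocked fit of the real libraries. Each gene was drawn independently, so shared shifts such as those of melanoma RNA were absent. Changes were placed only in genes with an average log2 CPM above 0, so Nos2 is not covered.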

Additional observations from a re-analysis of the deposited data

Results flagged for a closer look

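In 5 of 48 groups of 4 libraries a single library lay far from the other 3, where chance flags about 1 group in 20. The groups share the same 8 libraries and are not independent, so the number of flags is no test against that rate. Arg1 in WT 3 was at 49.9 CPM, with the other WT libraries at 8.93 to 14.9 CPM. In the same library the summed hepatocyte genes were at 2333 CPM and the summed stellate cell and fibroblast genes at 294 CPM, each the highest of WT. Nos2 in WT 2 was at 2.02 CPM, from 36 counts. Erythroid genes in KO 1 summed to 10.5 CPM, the highest of KO. No cause was tested for these values.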

How the results depend on the processing

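Without the block, the number of genes called higher in KO was 0 and became 1 with no filter on low counts, 30 with DESeq2, 1271 with the hepatocyte covariate and 1425 with the replicate block. The number called lower was 1 and became 36 with DESeq2, 524 with the hepatocyte covariate and 795 with the replicate block. Leaving out 1 library at a time gave 0 to 1 higher. The blocked counts rested on the pairs used: without pairs 1, 2, 3 and 4 they were 43, 1, 0 and 1475 higher and 164, 1, 1 and 754 lower. The replicate block called 2 lower and 1 higher in the arginine list, 2 higher in the ornithine list, 2 lower among other alternative activation genes, 2 lower and 2 higher among PPAR genes, and 2 lower and 1 higher in the IGF axis. The cause of these changes was not tested.

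Some estimates changed sign. With the melanoma covariate and without WT 1, WT 2 and KO 3 in turn, Il4ra was at 0.012 and 0.17, Tgm2 at 0.16 and 0.44, and Mgl2 at -0.023 and -0.017. The IL-4 list median was 0.052 with that covariate. Pparg was at -0.17 with the hepatocyte covariate, at -0.037 and -0.058 in blocked fits without pair 2 and pair 4, and from -0.093 to 0.19 with 1 library left out. Ppard was at 0.0088 with the hepatocyte covariate, 0.052 and 0.070 with limma on log2(FPKM + 1) and log2(FPKM + 0.1), 0.050 in the blocked fit without pair 4, and from -0.12 to 0.073 with 1 library left out. The next ranges, with 1 library left out, were added after seeing the data: neutrophil genes (-0.37 to 0.017), T cell genes (-0.56 to 0.18), basophil and mast cell genes (-0.051 to 0.57) and the Arg1 to hepatocyte ratio (-0.45 to 0.063). The estimates of Arg1, Arg2, Nos2, Igf1 and Retnla stayed below 0 in all settings run. Depth limits Nos2, with 2 to 36 counts per library.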

Other observations

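Among the lists for cells known as sources of IL-4, the basophil and mast cell genes had the lowest sums and the T cell genes the highest. The lists hold different genes, so their sums do not rank the cells themselves. The 5 basophil and mast cell genes (Mcpt8, Fcer1a, Cpa3, Ms4a2 and Prss34), each at 0 in at least 1 library, summed to 0.210 to 0.765 CPM in KO and 0.214 to 0.505 CPM in WT. Of 4 eosinophil genes, Prg2 and Epx were at 0 in some libraries, and the sum was 10.7 to 29.4 CPM in KO and 9.10 to 24.5 CPM in WT. The mean CPM of 3 of these genes was lower in KO, although the mean sum was higher there (22.5 CPM, beside 16.8 CPM in WT). T cell genes summed to 29.6 to 140 CPM in KO and 46.7 to 148 CPM in WT.

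Marker genes of the cell types below had sums that overlapped between the genotypes, and the cells they came from were not tested. Chil3 and F13a1 of the monocyte list and Cd209a of the dendritic cell list were also among the other alternative activation genes. Dendritic cell genes summed to 214 to 345 CPM in KO and 235 to 381 CPM in WT, monocyte genes to 283 to 451 CPM in KO and 353 to 535 CPM in WT, and neutrophil genes to 50.0 to 94.5 CPM in KO and 48.8 to 110.0 CPM in WT. Sinusoidal endothelial genes summed to 235 to 578 CPM in KO and 443 to 792 CPM in WT, B cell genes to 17.5 to 41.8 CPM in KO and 26.3 to 37.9 CPM in WT, and erythroid genes to 4.62 to 10.5 CPM in KO and 6.74 to 31.3 CPM in WT. None of the 13 marker lists had an adjusted p under 0.05 between genotypes (exact permutation, lowest adjusted p = 0.371). The smallest possible unadjusted p was 0.0286, so a single list could not have passed even with the genotypes fully separate. These adjusted p-values therefore do not show that the lists were alike.

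The urea cycle enzyme genes Cps1, Otc, Ass1 and Asl were, like Arg1, highest in WT 3, whereas the ornithine carrier gene Slc25a15 was highest in KO 3 (4.28 FPKM, beside 3.17 FPKM in WT 3). Cps1 was at 2.62, 2.14, 13.2 and 10.5 CPM in KO 1 to KO 4, against 3.20, 5.11, 44.7 and 11.4 CPM in WT 1 to WT 4. Otc was at 11.4 CPM in WT 3 and at most 4.56 CPM elsewhere.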
